A study of Rattus norvegicus with 15 samples.

Results

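The comparison set bone of ovariectomized rats in the groups SYT, YJT and YJZYT, averaged, against bone of ovariectomized rats in the group Model. The 9 treated libraries and the 3 Model libraries make up 12 of the 15 libraries of the series, and all 22468 genes of the count table entered. The quantity reported is the average of the 3 treated group means minus the Model mean, in log2 units, so that a change shared by the 3 conditions counts in full and a change in 1 of them counts for its part only. All rats were female Sprague-Dawley rats. The labels give ovariectomy as the treatment of SYT, YJT, YJZYT and Model and osteoporosis as the condition of Model. What SYT, YJT and YJZYT received beyond ovariectomy, the doses, the durations and the ages are not stated in the labels. Zhuanggu Zhitong Capsule, named in the title of the series, is a herbal preparation of Chinese medicine. The 3 Blank libraries came from rats labelled with no treatment; no sham-operated group is named, and Blank values are shown for orientation without a test. The labels do not say whether the 3 libraries of a group came from separate animals, so each p-value reflects the spread among the libraries at hand and that spread may be technical.

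Removal of the ovaries ends most oestrogen production, and in rats bone resorption by osteoclasts then outpaces bone formation by osteoblasts. Whole bone also holds marrow, in which red cells, granulocytes, B cells and macrophages form, and attached muscle can be carried along in dissection. Cells that secrete much protein, such as osteoblasts laying down collagen and plasma cells making antibody, depend on chaperones of the endoplasmic reticulum, the compartment in which secreted proteins are folded. When unfolded protein builds up there, the sensors IRE1, PERK and ATF6 raise these chaperones, a programme called the unfolded protein response. A related programme in the cytosol, the heat shock response, is driven by the factor HSF1.

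Library totals ran from 64472700 to 74255667 counts, and 17657 genes passed the low-count filter and were tested. The biological coefficient of variation was 42.7%. Markers of bone cells were present in all libraries: none of the 15 osteoblast or 15 osteoclast markers was at 0 in any library, and 1 of 12 osteocyte markers was at 0 in at least 1. Markers of skeletal muscle were present as well, with 11 fast-fibre markers of which none was at 0 in any library. In the other muscle lists some members were at 0 in at least 1 library. These were 1 of 13 slow-fibre genes, 4 of 14 genes of excitation and calcium and 2 of 15 muscle energy enzymes. Levels below, in CPM (a gene's counts relative to the scaled library total), are scaled with TMM factors, which adjust each library for differences in composition. The factors ran from 0.818 to 1.13 and lay between 1.04 and 1.10 in Model. With library totals alone as the scale, the median fold change over all genes shifted to -0.21, against -0.03 with TMM, so fold changes below are best read against the median of all genes.

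No gene passed an adjusted p of 0.05 in the shared contrast with edgeR's quasi-likelihood test (percent called 0, smallest adjusted p 0.968 over 17657 genes). At an unadjusted p under 0.05 there were 852 genes, or 4.83%, of which 482 (2.73%) were higher and 370 (2.1%) lower in the treated groups, where 882.85 would be expected with no change at all. In 43 genes (0.244%) every treated library lay above every Model library, and in 61 genes (0.345%) every treated library lay below every Model library; with library totals alone as the scale these counts were 5 and 339, of which 5 and 59 were shared with the TMM counts. All 3 treated group means lay above the Model mean in 3596 genes (20.4%) and below it in 4221 (23.9%). DESeq2 on the same counts called 32 genes, 26 higher and 6 lower, and limma on log2 FPKM called 0 under both pseudocounts. The values below are therefore differences that did not pass in the edgeR test, described by their size, their spread and the libraries that carry them.

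The named genes lowest in p among those lower in the treated groups included chaperones of the endoplasmic reticulum. Hsp90b1, which encodes the chaperone GRP94, had 374, 343 and 412 CPM in SYT, 418, 338 and 377 CPM in YJT and 359.8, 416 and 364 CPM in YJZYT, against 539.9, 596 and 573 CPM in Model. Every treated library lay below every Model library, and the 3 treated groups had nearly the same mean (log2 fold changes against Model of -0.60 in SYT, -0.59 in YJT and -0.58 in YJZYT, unadjusted p among them 0.996). The shared log2 fold change was -0.59 ± 0.12 (SE), with an unadjusted p of 0.000327 and an adjusted p of 0.968 in edgeR. Blank libraries had 476, 371 and 427 CPM, below the Model libraries and overlapping the treated ones.

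Hspa5, which encodes BiP, the main chaperone of this compartment and the protein that holds the unfolded protein sensors inactive, had 298, 288 and 386 CPM in SYT, 344, 253 and 336 CPM in YJT and 322, 358 and 299 CPM in YJZYT, against 472, 521 and 571 CPM in Model. Treated and Model libraries did not overlap, and Blank libraries had 498, 315 and 370.3 CPM, 1 of them within the range of Model. The shared log2 fold change of Hspa5 was -0.70 ± 0.16 (SE; unadjusted p 0.000684, edgeR). Pdia4, a protein disulfide isomerase that forms disulfide bonds during folding, had 76.4, 75.1 and 122 CPM in SYT, 83.4, 66.95 and 76.1 CPM in YJT and 89.4, 86.8 and 75.9 CPM in YJZYT, against 123, 127 and 141 CPM in Model. The highest treated library, SYT3, lay just under the lowest Model library, and the others lay between 66.95 and 89.4 CPM. The shared log2 fold change of Pdia4 was -0.65 ± 0.14 (SE; unadjusted p 0.000529, edgeR). These 3 genes were among the 6 that DESeq2 called lower, with adjusted p of 0.000878 for Hsp90b1, 0.0291 for Hspa5 and 0.0398 for Pdia4. In the coordinates of the authors' table, for which no source used here names a genome build, they are listed as Hsp90b1 (ENSRNOG00000026963, chromosome 7, 27226569 to 27240533), Hspa5 (ENSRNOG00000018294, chromosome 3, 13838304 to 13842762) and Pdia4 (ENSRNOG00000006228, chromosome 4, 77470636 to 77489535).

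**Figure D1:**
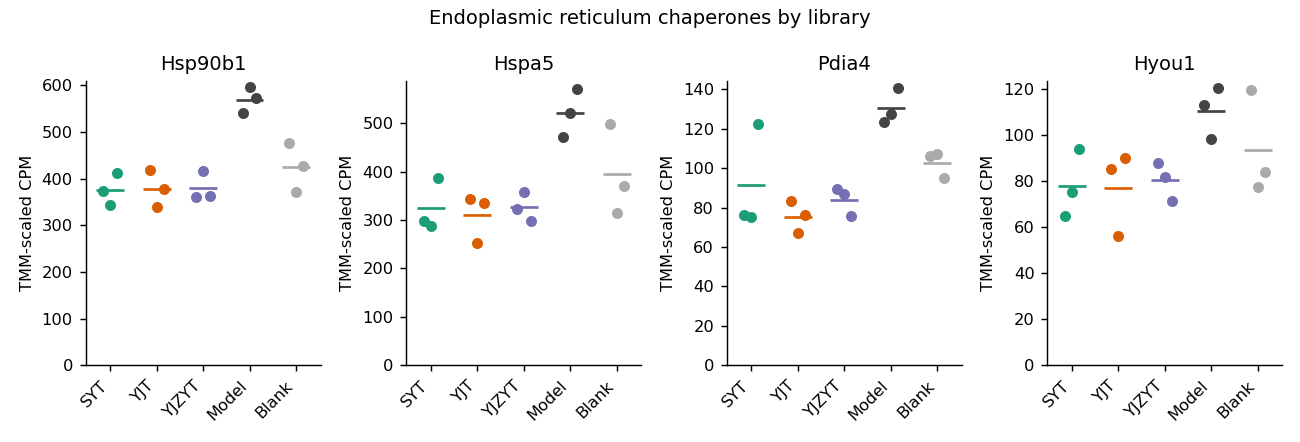
TMM-scaled CPM of 4 chaperones of the endoplasmic reticulum in each library (points) with the group mean (line), for SYT, YJT and YJZYT, then Model, then Blank; axes start at 0. All 9 treated libraries lie below all 3 Model libraries in each panel, and Blank overlaps the treated libraries in all 4.

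The list of 20 chaperones and regulators of the unfolded protein response was lower in the treated groups in 19 of its 20 tested members, against 54.6% of all genes, and its median log2 fold change was -0.28, against -0.03 for all genes. An unadjusted p under 0.05 was reached by 10 members, all lower, against 2.1% of all genes, and 4 members (Hsp90b1, Hspa5, Pdia4 and Hyou1) had no overlap, against 0.345% of all genes. None passed adjustment. The median was -0.24 in SYT, -0.38 in YJT and -0.25 in YJZYT, comparisons that share the 3 Model libraries, and 18 members were lower in all 3 groups. The list was chosen with earlier results of these data known, so its counts describe these libraries and are not independent evidence.

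By role, the chaperones that bind unfolded chains stood at log2 fold changes of -0.49 ± 0.17 for Hyou1, -0.33 ± 0.13 for Calr and -0.15 ± 0.14 for Canx (SE). Hyou1, a nucleotide exchange factor for BiP, had 56.2 to 93.9 CPM (median 81.9) in treated libraries, against 98.2 to 120.1 CPM in Model, with no overlap. Among co-chaperones of BiP, the log2 fold change was -0.48 ± 0.16 for Dnajb9, -0.25 ± 0.11 for Dnajb11 and -0.25 ± 0.13 for Dnajc3. Creld2, a secreted protein made under stress of this compartment, had 24.7 to 39.6 CPM (median 30.02) in treated libraries, against 37.2 to 54.5 CPM in Model, with a log2 fold change of -0.60 ± 0.15. The disulfide isomerases Pdia6 and Pdia3 stood at -0.32 ± 0.12 and -0.30 ± 0.12, while P4hb, which is also a subunit of the collagen prolyl hydroxylase, stood at -0.08 ± 0.15. Of the sensors, the log2 fold change was 0.19 ± 0.20 for Ern1, which encodes IRE1 and was the 1 member that lay higher, -0.10 ± 0.11 for Eif2ak3, which encodes PERK, and -0.04 ± 0.21 for Atf6. Xbp1, the factor activated by IRE1, stood at -0.23 ± 0.15. None of these 4 regulators reached an unadjusted p of 0.05.

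Leaving out each library in turn kept the median of the list between -0.31 and -0.24, with 18 or 19 members lower, and the number of members at an unadjusted p under 0.05 lay between 5 and 12, the fewest without Model2. With library totals alone as the scale, the list's median was -0.45 and lay 0.25 below the median of all genes, as with TMM. The plasma cell list, whose cells are rich in this machinery, was lower in 10 of 11 members, against 54.6% of all genes, with a median of -0.28. Xbp1 belongs to both lists, so they are not separate readouts. The summed level of the plasma cell list was 758, 668 and 855 CPM in SYT, 678, 699.6 and 659.6 CPM in YJT and 930.5, 869.8 and 609.8 CPM in YJZYT, against 862, 917 and 827 CPM in Model. The contribution of these cell types to the chaperone differences was not tested. In bulk bone, fewer cells of a type and less RNA per cell cannot be told apart.

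Promoters of these genes are shown because the ER stress element, the site through which ATF6 and the factor NF-Y act on chaperone genes, is a known feature of such promoters. The element was searched on both strands as CCAAT, 9 bases of any kind and CCACG, in the 300 bases around each RefSeq gene start (250 before and 50 after, build GRCr8). It was found in 7 of the 15 listed genes with a promoter entry, namely Calr, Canx, Creld2, Dnajc3, Hsp90b1, Hspa5 and Xbp1, and in 22 of 33469 promoters (0.0657%) overall. The first count is of genes with a match in any entry and the second of promoter entries, so their units differ. The Pdia4 window held no match. A match is a description of the letters and not evidence of binding. The Hspa5 window (chr3:38452766-38453065, + strand) held 1 match and the Hsp90b1 window (chr7:23012244-23012543, - strand) held 2, of which the second is on the opposite strand; matches are in capitals.
Hspa5: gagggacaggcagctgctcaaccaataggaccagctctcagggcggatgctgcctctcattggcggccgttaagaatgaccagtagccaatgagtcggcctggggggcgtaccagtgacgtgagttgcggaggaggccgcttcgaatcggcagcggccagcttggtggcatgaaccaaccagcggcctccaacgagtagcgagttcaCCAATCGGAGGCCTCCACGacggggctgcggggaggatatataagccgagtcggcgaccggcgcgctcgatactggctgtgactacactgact
Hsp90b1: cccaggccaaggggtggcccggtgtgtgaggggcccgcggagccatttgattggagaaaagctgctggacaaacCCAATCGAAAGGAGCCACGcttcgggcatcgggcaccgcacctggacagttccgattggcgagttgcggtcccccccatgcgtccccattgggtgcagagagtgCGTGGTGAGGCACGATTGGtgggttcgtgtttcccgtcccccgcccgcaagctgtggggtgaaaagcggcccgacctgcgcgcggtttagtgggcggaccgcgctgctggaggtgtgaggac

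Chaperones of the cytosol lay lower as well, but here 1 Model library stood apart. Hsph1, a nucleotide exchange factor for HSP70, had 44.9, 58.6 and 48.5 CPM in SYT, 64.8, 55.1 and 75.04 CPM in YJT and 64.5, 79.3 and 74.3 CPM in YJZYT, against 80.3, 165 and 95.8 CPM in Model. Hspa8, the constitutive HSP70, had 553, 499 and 691 CPM in SYT, 627, 513 and 609.8 CPM in YJT and 556, 612 and 646 CPM in YJZYT, against 697, 1247 and 787 CPM in Model. Treated and Model libraries did not overlap for either gene, and Model2 was the highest library in both. The shared log2 fold change was -0.87 ± 0.24 for Hsph1 and -0.63 ± 0.19 for Hspa8 (SE), with unadjusted p of 0.00317 and 0.00512 in edgeR. Dnaja1, a co-chaperone of HSP70, had 203, 126 and 162 CPM in SYT, 161, 150.4 and 138 CPM in YJT and 142, 180.1 and 158 CPM in YJZYT, against 166, 435 and 201 CPM in Model, and Chordc1, a partner of HSP90, had 67.4, 42.05 and 49.02 CPM in SYT, 54.9, 55.5 and 48.7 CPM in YJT and 46.3, 54.9 and 50.8 CPM in YJZYT, against 50.9, 157 and 68.2 CPM in Model. For both of these the treated libraries overlapped Model1, and Model2 was again the highest library.

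**Figure D2:**
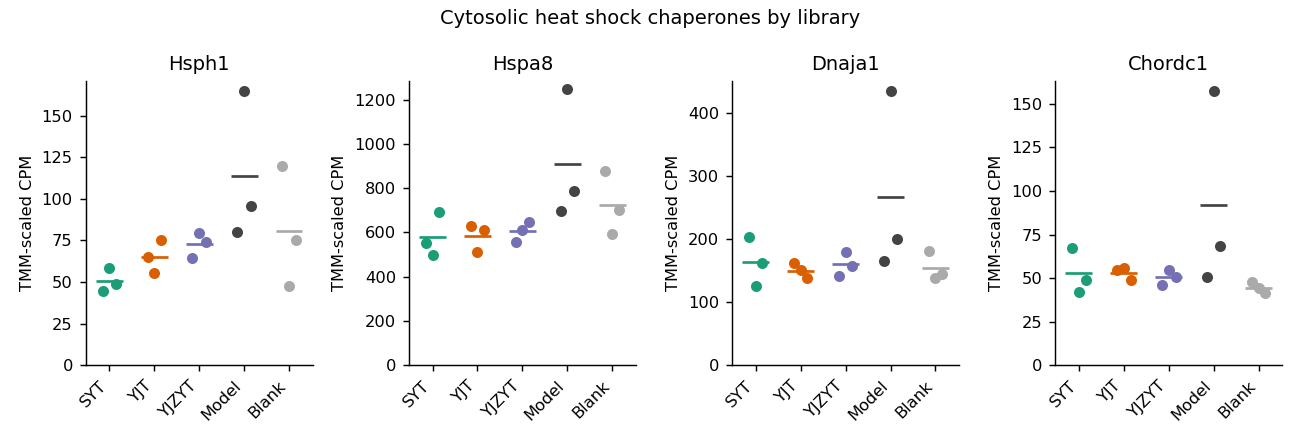
TMM-scaled CPM of 4 cytosolic heat shock chaperones in each library (points) with the group mean (line), for SYT, YJT and YJZYT, then Model, then Blank; axes start at 0. Model2 is the highest library in each panel, at 435 CPM for Dnaja1, and the other Model libraries of Dnaja1 and Chordc1 lie near the treated ones.

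The list of 21 heat shock chaperones had 20 tested members, of which 15 lay lower and 5 higher in the treated groups, with a median of -0.23. At an unadjusted p under 0.05 there were 8 lower members, against 2.1% of all genes, and 1 higher, against 2.73%. No overlap was seen for 3 lower members (Hsph1, Hspa8 and Hspa4), against 0.345% of all genes, and for Dnajb4, which lay higher at 0.38 ± 0.14 (SE), against 0.244%. With library totals alone 6 lower members had no overlap, and Dnajb4 overlapped. Without Model2 the median was -0.10 and no lower member reached an unadjusted p of 0.05, so the size of this difference rested on that library. Hspa4 had 139 to 179 CPM (median 166) in treated libraries, against 187 to 197 CPM in Model, a difference of -0.23 ± 0.11 on the log2 scale. The stress-induced Hspa1b stood at -1.29 ± 0.50 with an unadjusted p of 0.00689 among the 3 treated groups, and the mitochondrial chaperones Hspd1, Hspe1 and Hspa9 stood at -0.17 ± 0.16, -0.06 ± 0.20 and -0.09 ± 0.13. Hspa1b has a near-identical copy, and reads may be split between them.

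The heat shock element was searched as GAA, TTC and GAA, each separated by 2 bases of any kind, and as TTC, GAA and TTC with the same gaps, which is the same element on the other strand. It was found in 6 of the 17 listed genes with a promoter entry (Chordc1, Dnaja1, Hspa8, Hspd1, Hspe1 and Hsph1) and in 267 of 33469 promoters (0.798%). Here too the first count is of genes and the second of promoter entries. The windows of Hsph1 (chr12:10427118-10427417, + strand, 1 match) and Hspa8 (chr8:50080264-50080563, + strand, 2 matches) are shown with the matches in capitals, since these genes separated the groups.
Hsph1: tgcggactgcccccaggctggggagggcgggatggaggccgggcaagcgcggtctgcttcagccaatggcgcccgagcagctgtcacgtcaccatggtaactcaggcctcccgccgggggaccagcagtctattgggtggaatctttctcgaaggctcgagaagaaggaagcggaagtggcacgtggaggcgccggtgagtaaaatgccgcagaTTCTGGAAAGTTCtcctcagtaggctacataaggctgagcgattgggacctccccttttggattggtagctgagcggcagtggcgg
Hspa8: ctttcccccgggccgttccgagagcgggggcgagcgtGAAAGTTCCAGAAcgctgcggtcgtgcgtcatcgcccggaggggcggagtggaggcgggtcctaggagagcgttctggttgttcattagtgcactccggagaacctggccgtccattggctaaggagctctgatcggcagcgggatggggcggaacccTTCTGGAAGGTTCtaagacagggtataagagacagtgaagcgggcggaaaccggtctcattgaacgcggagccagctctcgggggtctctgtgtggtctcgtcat

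The integrated stress response, which PERK can trigger and which acts through the factor ATF4 on amino acid transport and synthesis, was near the median of all genes as a list. Of its 21 tested members 12 lay higher and 9 lower, with a median of 0.07 (-0.05 to 0.13 with 1 library left out, below 0 without YJT1). The 4 that reached an unadjusted p of 0.05 were all higher, against 2.73% of all genes, and their number lay between 1 (without Model3) and 6 (without Model1, SYT3 or YJZYT1). Ppp1r15a, which encodes the phosphatase subunit GADD34 that ends the response, had 47.4 to 166 CPM (median 102) in treated libraries, against 41.2 to 63.4 CPM in Model, with a log2 fold change of 0.92 ± 0.28 (SE). The asparagine synthetase Asns stood at 0.88 ± 0.35, the amino acid transporter Slc7a5 at 0.71 ± 0.31 and the mitochondrial enzyme Pck2 at 0.46 ± 0.17. Atf4 itself stood at 0.07 ± 0.19. The ranges of Ppp1r15a and Asns overlapped between treated and Model libraries.

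Other genes lowest in p also lay lower. Gsap, which encodes an activator of gamma-secretase, had 28.6 to 35.99 CPM (median 34.4) in treated libraries, against 41.9 to 45.1 CPM in Model, with no overlap and a log2 fold change of -0.39 ± 0.10 (SE). Il10rb, a receptor subunit shared by interleukin-10 and related cytokines, had 21.6 to 30.1 CPM (median 24.8) in treated libraries, against 29.9 to 35.9 CPM in Model, and Gcc2, a golgin of the Golgi apparatus, had 21.6 to 30.1 CPM (median 22.99) in treated libraries, against 29.3 to 35.3 CPM in Model. The zinc finger gene Zfp600 stood at -0.66 ± 0.17 and Phtf1 at -0.42 ± 0.11. In Il10rb, Gcc2, Zfp600 and Phtf1 at least 1 treated library, from SYT, lay above the lowest Model library. None of these genes passed adjustment (adjusted p 0.968 each, edgeR).

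Among genes that lay higher in all 3 treated groups, Mrap, which encodes the accessory protein that carries the corticotropin receptor to the cell surface, had 0.916, 1.49 and 0.753 CPM in SYT, 1.48, 1.62 and 2.49 CPM in YJT and 1.95, 2.63 and 2.98 CPM in YJZYT, against 0.744, 0.702 and 0.378 CPM in Model. The groups did not overlap, although the lowest treated library and the highest Model library were nearly level, and Blank libraries had 0.605, 0.651 and 0.676 CPM. The log2 fold change of Mrap was 1.48 ± 0.34 (SE; unadjusted p 0.000758, edgeR), with group values of 0.79 in SYT, 1.61 in YJT and 2.05 in YJZYT. Cib2, a calcium- and integrin-binding protein needed in sensory hair cells, had 2.31, 2.998 and 1.62 CPM in SYT, 2.698, 2.53 and 2.11 CPM in YJT and 2.12, 2.67 and 1.78 CPM in YJZYT, against 1.04, 1.01 and 1.31 CPM in Model. The groups did not overlap, and the group values were close to each other at 1.04 in SYT, 1.13 in YJT and 0.97 in YJZYT. The log2 fold change of Cib2 was 1.04 ± 0.26 (SE; unadjusted p 0.00151, edgeR). With library totals alone as the scale, Cib2 still separated the groups and Mrap did not.

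C1qtnf12, which encodes the secreted protein adipolin, had 1.94, 2.25 and 1.15 CPM in SYT, 1.56, 2.398 and 1.95 CPM in YJT and 4.01, 4.28 and 3.21 CPM in YJZYT, against 1.25, 0.927 and 0.865 CPM in Model. YJZYT libraries were the highest, the lowest treated library (SYT3) lay below the highest Model library, and the log2 fold change was 1.23 ± 0.28 (SE). Med16, a subunit of the Mediator complex of transcription, had 33.2 to 40.3 CPM (median 38.9) in treated libraries, against 25.5 to 30.4 CPM in Model, with no overlap and a log2 fold change of 0.40 ± 0.10; it overlapped with library totals alone. Cenpb, a centromere protein, stood at 0.59 ± 0.15, the guanylate kinase gene Guk1 at 0.72 ± 0.20 and Map2k3, a kinase that activates p38, at 0.66 ± 0.18. Each of these 3 overlapped with Model: the highest Model library was Model1 for Cenpb and Map2k3 and Model2 for Guk1, and Cenpb in YJT1 was level with Model1. DESeq2 called C1qtnf12, Mrap, Mlf1, Cib2, Jph1, Med16 and Tnnc1 higher. Of its 32 calls 15 carry only a clone or provisional name and 8 were at 0 in all Model libraries. No overlap between treated and Model libraries was seen for 11 of the 32. Over all genes these shares were 0.244% (higher) and 0.345% (lower). The calls were made on the same libraries, so this count is not independent evidence.

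Genes of striated muscle had list medians above Model in SYT and YJT and below Model in YJZYT. Mlf1, a gene abundant in muscle, had 6.598, 13.2 and 18.6 CPM in SYT, 15.7, 21.03 and 18.7 CPM in YJT and 4.37, 3.605 and 5.49 CPM in YJZYT, against 5.14, 3.93 and 4.22 CPM in Model. SYT and YJT libraries lay above all Model libraries, YJZYT libraries lay at the level of Model, and Blank libraries had 24.4, 21.9 and 30.7 CPM. Tnnc1, the calcium-binding troponin of slow fibres, had 104, 44.7 and 71.8 CPM in SYT, 117, 109.6 and 55.2 CPM in YJT and 20.7, 11.96 and 21.5 CPM in YJZYT, against 21.1, 16.1 and 27.5 CPM in Model, the same pattern. Jph1, a junctophilin that couples the membrane systems of muscle, had 2.53, 8.54 and 7.07 CPM in SYT, 9.798, 7.11 and 8.404 CPM in YJT and 2.91, 0.894 and 2.26 CPM in YJZYT, against 2.21, 0.787 and 1.24 CPM in Model. Acta1, the actin of skeletal muscle, had 275, 889 and 1059 CPM in SYT, 1218, 1063 and 968 CPM in YJT and 211, 5.56 and 57.5 CPM in YJZYT, against 181, 30.7 and 260.3 CPM in Model, and Blank libraries had 1627, 1073 and 1941 CPM. Pla2g12a, a secreted phospholipase gene, also had its highest means in SYT and YJT, with group log2 fold changes of 0.89 in SYT, 1.22 in YJT and 0.17 in YJZYT.

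**Figure D3:**
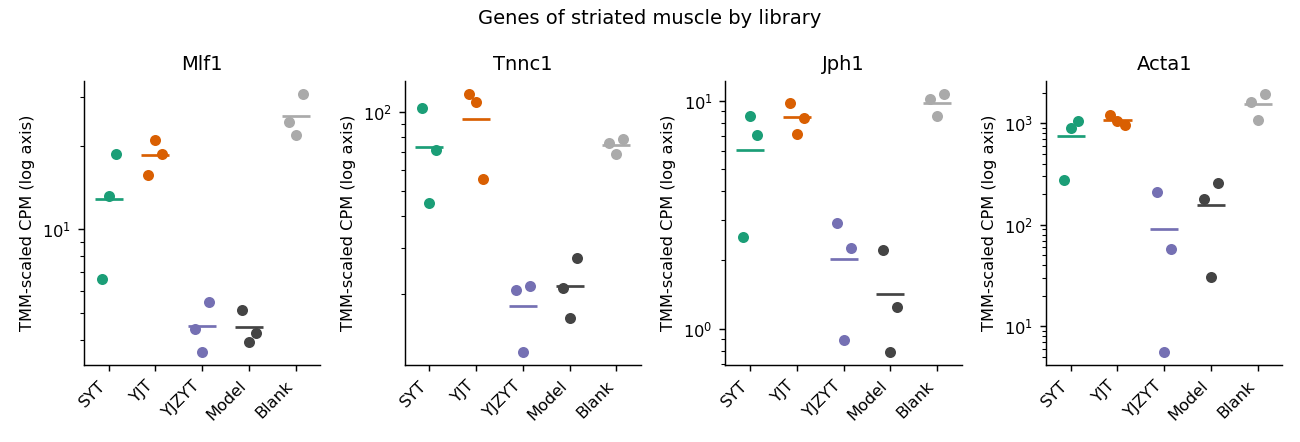
TMM-scaled CPM (log axis) of 4 genes of striated muscle in each library (points) with the group mean (line), for SYT, YJT and YJZYT, then Model, then Blank. The SYT and YJT means lie above the Model mean in each panel, and YJZYT overlaps Model; Acta1 in YJZYT runs from 5.56 to 211 CPM.

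The shared median was 1.20 for 11 fast-fibre genes, 1.07 for 13 slow-fibre genes, 1.29 for 14 genes of excitation and calcium and 0.97 for 15 muscle energy enzymes. With 1 library left out, the slow-fibre median lay between 0.41 (without YJZYT1) and 2.52 (without Model3), the fast-fibre median between 0.83 and 1.47, the excitation median between 0.86 and 1.64 and the energy enzyme median between 0.75 and 1.32. By group, the fast-fibre median was 2.16 in SYT, 2.30 in YJT and -0.69 in YJZYT, and the slow-fibre median was 2.09 in SYT, 2.57 in YJT and -1.49 in YJZYT. The summed fast-fibre level was 679, 3605 and 4343 CPM in SYT, 3365, 3371 and 3161 CPM in YJT and 1162, 309 and 369 CPM in YJZYT, against 963, 622 and 1065 CPM in Model. On the fast-fibre sum SYT1 thus lay within the range of Model and below YJZYT1, and the high level in SYT rested on SYT2 and SYT3. The summed slow-fibre level was 1055, 1056 and 1446 CPM in SYT and 2084, 1618 and 1198 CPM in YJT. It was 523, 395 and 460 CPM in YJZYT, against 557, 377 and 766 CPM in Model, so SYT1 lay above Model on this sum. No gene differed among the treated groups at an adjusted p of 0.05 in edgeR (0 of 17657, smallest adjusted p 0.253; 1026 genes, 5.81%, at an unadjusted p under 0.05), whereas DESeq2 called 239. Of genes with a symbol and 1 FPKM in a group mean, Tnnc1, Adssl1, Asb14, Aspnl1 and Mlf1 had the smallest p among the groups. Unadjusted p under 0.05 among the groups was reached by 7 of 11 fast-fibre genes, 11 of 13 slow-fibre genes, 10 of 14 excitation genes and 13 of 15 energy enzymes. Averaged over SYT and YJT alone the fast-fibre median was 2.15, and over YJT and YJZYT alone it was 0.72. Acta1 took 0.0614 ± 0.0478% of counts in the treated libraries (SD, n = 9) and 0.0172 ± 0.0129% in Model (SD, n = 3), with an exact two-sided permutation p of 0.236 (0.424 adjusted over 4 shares).

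**Figure D4:**
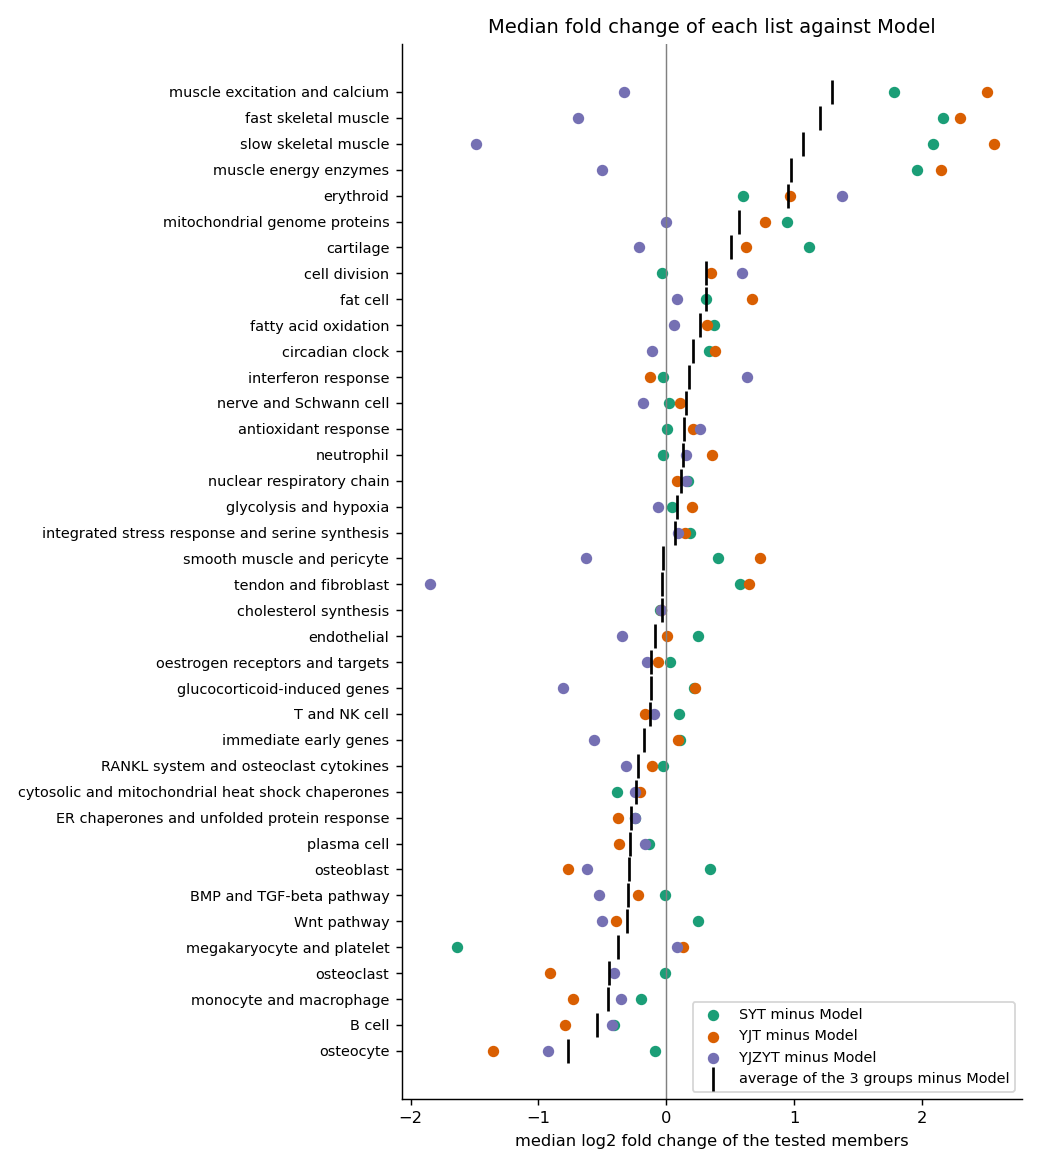
Median log2 fold change of the tested members of each of 38 lists against Model (x axis), for SYT, YJT and YJZYT (coloured points) and for their average (black bar), with lists down the page in order of the average. The 3 groups lie on the same side of 0 for the erythroid, B cell and both chaperone lists. They do so for other lists too, such as fat cell, macrophage, osteocyte and fatty acid oxidation. For the 4 muscle lists YJZYT lies below 0 and SYT and YJT lie between 1.78 and 2.57.

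Among marrow cells, erythroid genes lay higher in every group. All 16 tested members of the erythroid list lay higher, against 45.4% of all genes, in each of the 3 groups, with a shared median of 0.95 (0.60 in SYT, 0.97 in YJT and 1.38 in YJZYT), and 4 reached an unadjusted p of 0.05, against 2.73% of all genes. That number was 16 without Model1, 12 without SYT3 and 0 without Model2 or without Model3. Ahsp, which stabilises free alpha-globin, had 674, 850.2 and 216 CPM in SYT, 388, 1064 and 751 CPM in YJT and 685, 1456 and 1612 CPM in YJZYT, against 520.2, 327 and 281 CPM in Model. The treated libraries overlapped Model, and SYT3 lay below all 3 Model libraries. The log2 fold change was 1.11 ± 0.43 for Ahsp, 1.01 ± 0.41 for Fech, the last enzyme of haem synthesis, 0.95 ± 0.43 for Alas2, its first erythroid enzyme, and 0.90 ± 0.39 for Tfrc, the transferrin receptor (SE). The summed level of the list was 48683, 53593 and 15305 CPM in SYT, 21478, 54524 and 33614 CPM in YJT and 27518, 77065 and 81921 CPM in YJZYT, against 34395, 18594 and 17571 CPM in Model. Model1 lay within the treated range, and the list's median was 1.52 without Model1 and 0.67 without Model2. Haemoglobin transcripts took 10.4 ± 4.43% of counts in the treated libraries (SD, n = 9) and 6.35 ± 2.91% in Model (SD, n = 3), with an exact two-sided permutation p of 0.191.

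B cell genes lay lower in all 18 tested members, against 54.6% of all genes, and their median lay lower in each group, with a shared median of -0.54 (-0.41 in SYT, -0.79 in YJT and -0.42 in YJZYT), and 5 reached an unadjusted p of 0.05, against 2.1% of all genes. Rag1, one of the pair of proteins that cut antigen receptor genes in developing lymphocytes, had 147, 88.8 and 122 CPM in SYT, 129, 109 and 74.7 CPM in YJT and 82.5, 203 and 95.1 CPM in YJZYT, against 108, 278 and 208 CPM in Model. Model2 and Model3 were the highest of the 12 libraries, and Model1 lay among the treated ones. The log2 fold change was -0.77 ± 0.31 for Rag1, -0.77 ± 0.31 for its partner Rag2 and -0.74 ± 0.28 for Pou2af1, a B cell coactivator (SE). The summed level of the B cell list was 1551, 1026 and 1547 CPM in SYT, 1309, 1228 and 743 CPM in YJT and 1168, 1933 and 1057 CPM in YJZYT, against 1091, 2724 and 1910.2 CPM in Model, with Model2 the highest and YJT3 the lowest. Without Model2 the median was -0.25, 16 of 18 members lay lower and none reached an unadjusted p of 0.05. Macrophage markers lay lower in 12 of 13 members, with a median of -0.45 (-0.59 to -0.29 with 1 library left out, nearest to 0 without Model2) and no member at an unadjusted p of 0.05. Neutrophil markers had a median of 0.13 that lay between -0.20 and 0.40 when 1 library was left out and was below 0 in 8 of 26 alternatives, so no direction is given.

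**Figure D5:**
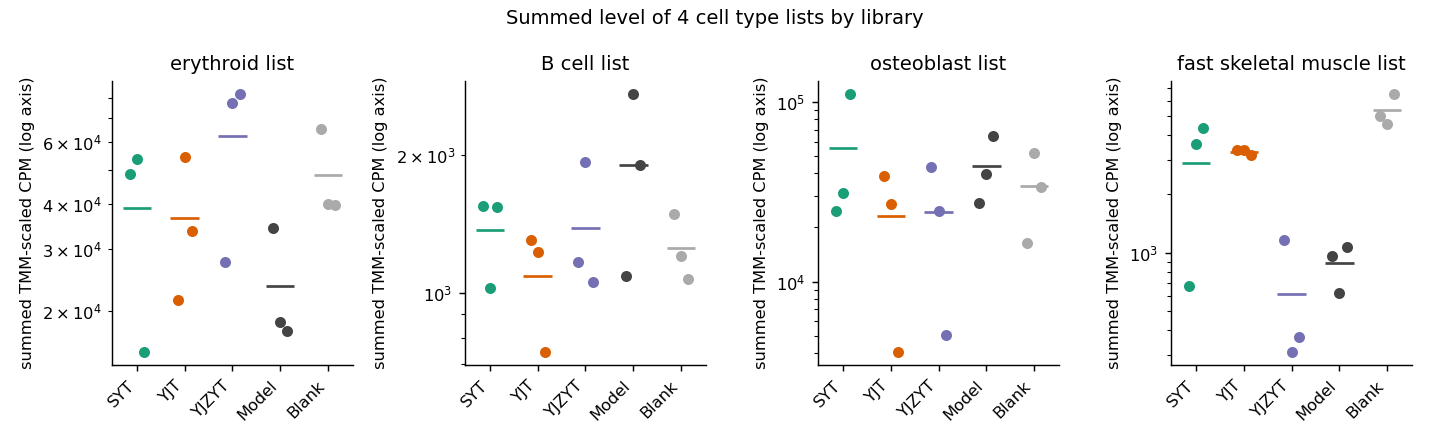
Summed TMM-scaled CPM (log axis) of the erythroid, B cell, osteoblast and fast skeletal muscle lists in each library (points) with the group mean (line), for SYT, YJT and YJZYT, then Model, then Blank. The treated libraries overlap Model in all 4 panels, and the B cell sum is highest in Model2, at 2724 CPM.

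All 20 tested genes of fatty acid oxidation had a positive log2 fold change, against 45.4% of all genes, with a median of 0.26 (0.38 in SYT, 0.32 in YJT and 0.06 in YJZYT), and 6 reached an unadjusted p of 0.05 in this direction, against 2.73% of all genes. None passed adjustment, and in YJZYT alone 11 members lay higher and 9 lower. Hadhb, the thiolase subunit of the trifunctional protein, had 101 to 153 CPM (median 121) in treated libraries, against 91.4 to 93.6 CPM in Model, with a log2 fold change of 0.39 ± 0.12 (SE), and did not overlap except with library totals alone. Acadl, a long-chain acyl-CoA dehydrogenase, stood at 0.36 ± 0.12, and Ucp3, a mitochondrial carrier of muscle, at 1.40 ± 0.48 with the groups apart (1.57 in SYT, 2.41 in YJT and 0.24 in YJZYT). With library totals alone as the scale 15 of the 20 lay higher, with a median of 0.09, which is 0.30 above that of all genes. The 13 proteins encoded by the mitochondrial genome lay higher by a median of 0.57, but by 0.94 in SYT, 0.78 in YJT and 0.00 in YJZYT, and mitochondrial transcripts took 15.3 ± 6.01% of counts in treated libraries (SD, n = 9) and 11.3 ± 1.93% in Model (SD, n = 3; exact two-sided permutation p 0.318). Nuclear genes of the respiratory chain had a median of 0.12, which was below 0 with library totals alone and with limma on FPKM. The glycolysis and hypoxia list had 14 members higher and 7 lower, with a median of 0.08, and in YJZYT 14 of its 21 lay lower. Muscle is rich in these enzymes, and the medians of the muscle lists also stood higher in SYT and YJT than in YJZYT; their part in these values was not tested.

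The clock gene Cry1, a repressor of the circadian loop, had 12.3 to 19.9 CPM (median 15.1) in treated libraries, against 17.3 to 35.1 CPM in Model, with a log2 fold change of -0.71 ± 0.21 (SE). Per3, another repressor, had 6.56 to 30.8 CPM (median 17.3) in treated libraries, against 4.07 to 11.7 CPM in Model. The highest Model library of Cry1 was Model2. The 19 clock genes had a median of 0.21, with 0.33 in SYT, 0.38 in YJT and -0.11 in YJZYT, where 12 of the 19 lay lower. With 1 library left out the clock median lay between 0.07 (without Model2) and 0.46 (without Model3). The catalase gene Cat stood at 0.67 ± 0.27, and Slc2a4, the insulin-regulated glucose transporter of fat and muscle, at 1.25 ± 0.37, with group values of 1.64 in SYT, 1.69 in YJT and 0.41 in YJZYT. The list of 21 cell division genes lay higher in 20 members with a median of 0.31, without a member at an unadjusted p of 0.05; its median was -0.03 in SYT, 0.35 in YJT and 0.59 in YJZYT, and 0.19 without SYT2. With library totals alone 15 of the 21 lay higher.

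None of the 12 key genes of bone and fat passed adjustment (adjusted p 0.968 or more, edgeR). All 15 tested osteoblast genes had a negative log2 fold change, with a median of -0.29, yet none reached an unadjusted p of 0.05, and the medians were 0.34 in SYT, -0.77 in YJT and -0.62 in YJZYT. Col1a1, the main collagen chain of bone, had 12912, 18194 and 75016 CPM in SYT, 22494, 16927 and 2109 CPM in YJT and 28997, 13733 and 2431 CPM in YJZYT, against 16736, 21029 and 43416 CPM in Model. SYT3 was the highest of the 12 libraries and YJT3 and YJZYT3 the lowest, so the treated groups spanned the whole range of Model. The log2 fold change was -0.48 ± 0.75 for Col1a1, -0.66 ± 0.52 for Bglap (osteocalcin), -0.33 ± 0.35 for Runx2 and -0.20 ± 0.60 for Sp7, the last pair being transcription factors of osteoblasts (SE). Without Model3 the osteoblast median was -0.04, and without YJT3 and YJZYT3 6 of the 15 lay higher. Col1a1 took 2.04 ± 2.09% of counts in treated libraries (SD, n = 9) and 2.93 ± 1.59% in Model (SD, n = 3; exact two-sided permutation p 0.536).

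Osteoclast genes lay lower in 13 of 15 members, against 54.6% of all genes, with a median of -0.45 (-0.01 in SYT, -0.91 in YJT and -0.41 in YJZYT). With 1 library left out this median lay between -0.66 (without YJT1) and -0.19 (without Model3). Ctsk, the collagen-degrading cathepsin, stood at -0.53 ± 0.54 and Acp5, the tartrate-resistant phosphatase, at -0.25 ± 0.63 (SE). Tnfsf11, which encodes RANKL, the cytokine that drives osteoclast formation, had 1.28, 1.305 and 3.87 CPM in SYT, 1.39, 0.633 and 0.428 CPM in YJT and 1.72, 0.6604 and 0.566 CPM in YJZYT, against 3.22, 2.18 and 1.96 CPM in Model. Its log2 fold change was -1.03 ± 0.46 (unadjusted p 0.0453, edgeR), with 8 treated libraries under every Model library and SYT3 above them all. Its decoy receptor Tnfrsf11b (osteoprotegerin) stood at -0.03 ± 0.70. Bmp2, a bone-inducing ligand, had 2.62 to 12.3 CPM (median 7.72) in treated libraries, against 8.51 to 15.5 CPM in Model, a log2 fold change of -0.99 ± 0.36. The 30 genes of the BMP and TGF-beta pathway had a median of -0.30. Only 1 of the 30 was lower at an unadjusted p under 0.05 (edgeR), against 2.1% of all genes, so this count lay near that of all genes. The pathway median was -0.01 in SYT, -0.22 in YJT and -0.53 in YJZYT; with 1 library left out it lay between -0.40 (without SYT3) and -0.12 (without Model3), with 5 and 0 such members. Osteocyte genes lay lower in 11 of 12 members, against 54.6% of all genes, with a median of -0.77. Their group medians were -0.09 (SYT), -1.36 (YJT) and -0.93 (YJZYT). The list median lay between -1.08 and -0.28 with 1 library left out. An unadjusted p under 0.05 (edgeR) was reached by 1 lower member, and none passed adjustment. The osteocyte product Sost stood at -0.35 ± 0.67, with group values of -0.94 (SYT), -1.39 (YJT) and 1.29 (YJZYT). Sost was the 1 member that lay higher in YJZYT, where 11 lay lower. The oestrogen receptor gene Esr1 stood at -0.27 ± 0.57, Adipoq, a hormone gene of fat cells, at 0.20 ± 0.65, and Pparg, the regulator of fat cell formation, at -0.11 ± 0.38. The fat cell list lay higher in 15 of 18 members, against 45.4% of all genes. Its median was 0.31 (0.31 in SYT, 0.67 in YJT and 0.08 in YJZYT), and 0.08 to 0.61 with 1 library left out. An unadjusted p under 0.05 (edgeR) was reached by 2 members, both higher, against 2.73% of all genes, and none passed adjustment. In YJZYT 11 members lay higher and 7 lower.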

How the data were processed

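Bulk RNA sequencing of rat bone gave 15 libraries, 3 each in SYT, YJT, YJZYT, Model and Blank, grouped by their labels. Trizol extraction, oligo(dT) selection, dUTP strand marking and adapters with molecular identifiers are stated per the labels' protocols. Tools listed in the submitters' processing notes, without role or order, are HISAT2 2.0.4 and StringTie 1.3.4d, with UMI-tools, cutadapt 1.9, edgeR and DESeq2. No source used here names the genome build, annotation, strand setting or use of the identifiers (not given in the sources used here), so antisense partners, overlapping genes and near-identical copies may share reads. The authors deposited 1 table with a count and an FPKM column per library and 22468 genes. The deposited count values entered the tests unchanged, and the authors' FPKM values served the alternatives and a floor of 1 FPKM for naming genes.

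Counts were fitted with edgeR 4.0.16 (R 4.3.3) over all 15 libraries with a mean per group, filterByExpr (17657 genes tested, 4811 left out), TMM scaling and the robust quasi-likelihood F test, two-sided, with Benjamini-Hochberg adjustment over all tested genes and a threshold of 0.05. The contrast was the mean of SYT, YJT and YJZYT minus Model, and a second test asked whether the 3 groups differ. The biological coefficient of variation was 42.7%, with 3 libraries a group. Standard errors are the fold change divided by the root of F. Shares of counts were compared with exact two-sided permutation tests over 220 draws, whose smallest p is 0.00909.

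Members of 38 lists (648 of 664 listed symbols matched, lists sharing some genes) and 12 key genes of bone and fat, and the rule for naming genes, were chosen with earlier results of these data known. Named were the 10 genes per direction with the smallest p that carry a symbol, reach 1 FPKM and have all 3 group means on 1 side of Model, none of which passed. Also named were up to 4 members per list at an unadjusted p under 0.05 and the 12 key genes. From genes with a symbol and 1 FPKM in a group mean, the 5 with the smallest p among the treated groups were added. List members named for their role at a higher p, and the lists shown in detail, were chosen after their values were seen. A symbol is shared with another entry by 2261 genes, kept apart by identifier. Promoters were read from RefSeq, build GRCr8. Alternatives were RLE and library totals as scales, other low-value filters, DESeq2 1.42.0, limma 3.58.1 on log2(FPKM + 1) and log2(FPKM + 0.1), only the 12 libraries compared, a replicate block, each library left out, no YJT3 and YJZYT3, 1 pooled group of 9, and averages of 2 groups. The count of genes without overlap under other scales was chosen after seeing the data. Scripts were tested on simulated data. Figures were drawn with matplotlib.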

Additional observations from a re-analysis of the deposited data

Results flagged for a closer look

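Each of 4 shares of counts and the 20 genes named for the smallest p was checked for a treated library far from the other 8 of the 9. Of these 24 values 3 stood out, and chance flags about 1 in 20. The Col1a1 share was 7.10% in SYT3, against 2.94% in the next library. Pdia4 stood at 122 CPM in SYT3, against 89.4 CPM in the next library, and Zfp600 at 16.2 CPM in SYT1, against 12.4 CPM in the next.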

How the results depend on the processing

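The count of genes passing in the shared contrast was 0 in every alternative except DESeq2, with 32, and the fits that leave out 1 library, with 0 to 1; the 1 gene, RGD1565617 without SYT replicate 3, was named after its value was seen. The count of genes differing among SYT, YJT and YJZYT was 0 except with DESeq2, with 239, and 0 to 1 over the same leave-one-out fits, the 1 being the myosin light chain gene Myl2 without Model replicate 2. Why DESeq2 called more was not tested. Same-numbered libraries of different groups did not deviate together as a set (18 pairs, correlations of -0.62 to 0.65, median -0.13, 5 over 0.1). Pairs with different numbers spanned a similar range (36 pairs, -0.70 to 0.61, median 0.00287, 16 over 0.1). Single same-numbered pairs were high, such as YJT3 with YJZYT3 at 0.65. The correlations therefore cannot show whether the numbers pair the samples, and the labels do not say. With the replicate number as a block the counts were 0 and 0, with 677 genes at an unadjusted p under 0.05 in the shared contrast (edgeR).

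Of the fold changes of named genes, 2061 kept direction and side of the threshold, 10 passed under DESeq2 and 29 changed sign; the cause was not tested. Tnfrsf11b was 0.00515 in the 12 libraries alone, 0.0253 with the replicate block, 0.23 without YJT3 and YJZYT3, 0.20 as 1 group of 9, 0.00859 over SYT and YJZYT and 0.45 over SYT and YJT. Without YJT3 and YJZYT3, Sp7 was 0.10, Acp5 0.058 and Pparg 0.0473. As 1 group of 9, Sost was 0.16 and Aspnl1 0.39. Over SYT and YJZYT, Sp7 was 0.15, Sost 0.18 and Asb14 -0.18, and over SYT and YJT Aspnl1 was 0.83. With 1 library left out, values ran from -0.58 to 0.70 for Tnfrsf11b, -0.36 to 0.13 for Pparg, -0.69 to 0.24 for Esr1, -0.32 to 1.02 for Adipoq, -0.87 to 0.0841 for Col1a1, -0.50 to 0.23 for Sp7, -0.71 to 0.31 for Sost and -0.33 to 0.44 for Aspnl1. The treated minus Model difference in the Col1a1 share ran from -1.52 to 0.0247 percentage points, above 0 without Model replicate 3. Hsp90b1 stayed between -0.77 and -0.54, Hspa5 between -0.89 and -0.59 and Pdia4 between -0.84 and -0.54 over all alternatives. These genes were named for their small p in the same contrast and libraries, so their kept sign is not independent evidence. The single Model group of 3 libraries enters every fold change and limits them all.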
